A study of Drosophila melanogaster with 3 samples.

Results

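The trithorax group genes described here are 9 fly genes whose products keep developmental genes active: brahma (brm), moira (mor), osa, Snf5-related 1 (Snr1), trithorax (trx), absent, small, or homeotic discs 1 and 2 (ash1 and ash2), Trithorax-like (Trl) and kismet (kis). They were listed by name and found by symbol among the 13968 protein-coding genes of the Ensembl annotation. Peaks were assigned to a gene when the summit, the position of the strongest signal in a peak, lay in the gene body or within 2000 bp of any of its transcription start sites (TSSs). By this rule 6 of the 9 genes held 16 of the 2988 peaks of the combined list, the peaks that the authors kept after comparing replicates by the irreproducible discovery rate (IDR).

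The binding data are ChIP-seq, in which sonicated chromatin (fragments of 200 to 800 bp) is recovered with an antibody and sequenced. The antibody was against GFP, and the embryos came from 1 stable transgenic line of Drosophila melanogaster that carries CG10274 with GFP at its C-terminus. Embryos of mixed sex were collected at 0 to 24 h, and the 3 samples are biological replicates 1, 2 and 3 of this 1 group. There is no second genotype, stage or treatment in the samples used here, the labels do not name the promoter that drives the tagged protein, and whole embryos pool all cell types and a day of development. Binding of the tagged protein in a few cells and weak binding in many cells cannot be told apart.

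Trithorax group proteins act against Polycomb silencing and maintain the expression of Hox and other developmental genes through cell divisions. Brm is the ATPase of the Brahma chromatin remodelling complexes, Mor and Snr1 are core subunits of these complexes, and Osa is the subunit that marks their BAP form. Trx and Ash1 are histone methyltransferases, Ash2 is a shared subunit of the COMPASS methyltransferase complexes, Trl encodes the GAGA factor, which binds GAGAG sequences, and Kis is a chromodomain remodeller of the CHD family.

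The 5 strongest peaks of these genes lay at Trl, osa, trx and brm, and the bases within 50 bp of each summit are printed because the results below turn on them. All are read from the dm6 genome on the minus strand, which is the coding strand of all 4 genes, and capitals mark the longest run of A and T. The numbers after the gene names give the distance of the summit in bp from the gene's 5′ end, positive in the direction of transcription. The windows are chr3L:14759440-14759540 for Trl, chr3R:17704354-17704454 and chr3R:17700511-17700611 for osa, chr3R:14283849-14283949 for trx and chr3L:15982961-15983061 for brm.
Trl +1559: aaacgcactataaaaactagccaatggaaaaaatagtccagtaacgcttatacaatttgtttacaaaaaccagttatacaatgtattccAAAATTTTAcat
osa +13946: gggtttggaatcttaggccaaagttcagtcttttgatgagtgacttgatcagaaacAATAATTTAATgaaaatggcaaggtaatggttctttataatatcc
trx +3004: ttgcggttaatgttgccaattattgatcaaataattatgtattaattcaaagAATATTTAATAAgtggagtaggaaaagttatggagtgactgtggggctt
brm -142: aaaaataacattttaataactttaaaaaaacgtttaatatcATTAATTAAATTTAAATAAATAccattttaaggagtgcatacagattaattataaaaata
osa +17789: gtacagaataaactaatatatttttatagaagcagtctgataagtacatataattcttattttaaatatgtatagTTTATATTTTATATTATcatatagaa

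The peaks sat at 3 of the 4 Brahma complex genes, at trx, at the GAGA factor gene Trl and at kis, and none of the 3 genes Snr1, ash1 and ash2 held a combined summit. Trl held 6 summits, trx and kis held 3 each, osa held 2, and brm and mor held 1 each. The share of 6 of 9 genes (66.7%, 95% Wilson interval 35.4 to 87.9%, for the counting of genes only) stands beside 19.5% of all protein-coding genes. The 9 genes are a list chosen with earlier results of these data known and not a random sample. The interval is therefore no test against the 19.5%. Long genes hold more summits, so the same share was taken by the length of the region searched. Below 10 kb it was 1 of 4 genes (mor) beside 15.3% of protein-coding genes, from 10 to 20 kb 2 of 2 genes (brm and Trl) beside 36.0%, and from 20 kb 3 of 3 genes (osa, trx and kis) beside 45.2%. The count below 10 kb is near the background: it rests on mor, whose only summit is nearer to another gene and falls out with windows of 500 or 1000 bp. The other classes hold 2 and 3 genes, and no test was made of the list. At 4 of the 6 genes (brm, mor, osa and kis) every summit was nearer to the TSS of another gene. With summits counted only for the gene of the nearest TSS, 2 of 9 members (22.2%) held a summit, beside 12.4% of protein-coding genes. The 3 genes with no summit all fell in the shortest class. In each of the 3 length classes most protein-coding genes have none, and the share with a summit is lowest in the shortest class.

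**Figure D1:**
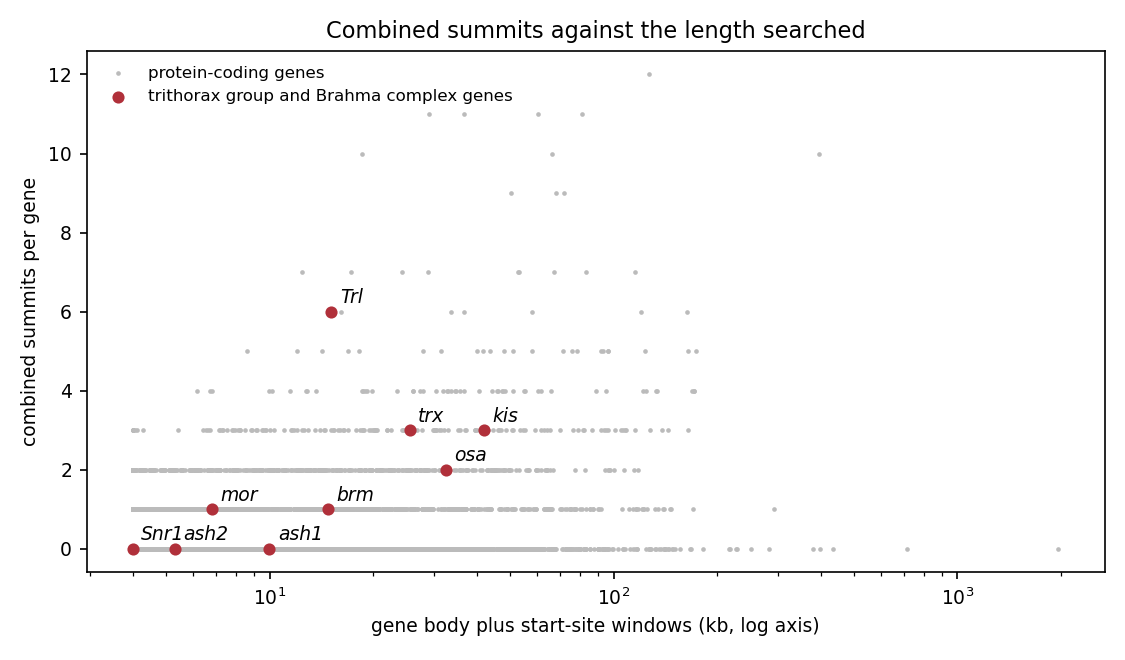
Number of combined summits per gene (vertical axis) against the length searched in kb (horizontal log axis), with 1 grey point for each of the 13968 protein-coding genes and the 9 trithorax group genes in red. Trl lies above most genes of its length with 6 summits, and Snr1, ash2 and ash1 lie at 0 among the short genes.

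Peaks of high score stood at Trl, osa, trx and brm, and most summits lay away from promoters. A summit among the first 300 of the combined list by score was held by 4 of the 9 genes (Trl, osa, trx and brm), beside 2.73% of protein-coding genes, and the second osa peak followed at rank 302. This share was not taken by length, and all 4 genes had regions longer than 10 kb. The brm summit was just inside the limit at rank 299, and the osa and brm summits were nearer to the starts of other genes. The score is the authors' own peak score, which has no fixed range and runs from 128 to 22892 in the combined list. The median rank of the 16 summits was 1048.5, beside 1494.5 for all combined peaks, and their median score was 271, beside 211. A summit within 500 bp of the gene's own TSS was found at 2 of 9 genes (brm and Trl), beside 11.1% of protein-coding genes, and replicate 3 did not list the Trl summit, so that brm alone was left without replicate 1 or without replicate 2. Counted over peaks, 5 of the 16 summits (31.2%) lay within 500 bp of the TSS of any gene, beside 47.3% of all combined summits. Introns held 12 of the 16 summits, 3 lay upstream of the gene, and 1 lay in a 5′ untranslated region of Trl.

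**Figure D2:**
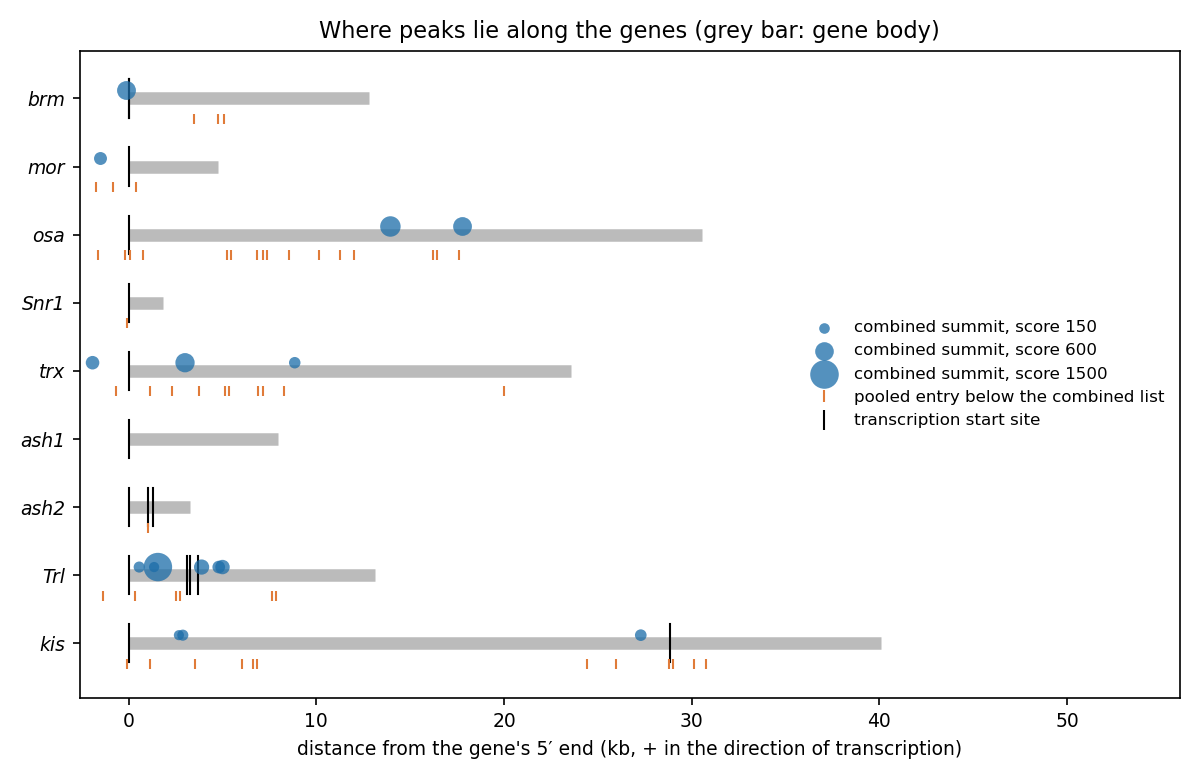
Each of the 9 genes is drawn from its 5′ end (0 on the horizontal axis, in kb) as a grey bar, with black ticks for TSSs, blue circles whose area grows with the score for combined summits, and orange ticks for entries of the list called on pooled replicates that fell below the combined list. The largest circle is the Trl peak at +1559, the osa peaks lie far inside the gene, and ash1 carries neither a circle nor an orange tick.

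Relative scores were used to compare the 3 replicates. The score of the best overlapping peak was divided by a median taken within the same replicate. This median covered only the 2292 combined peaks found in every replicate list, called shared peaks here. A value of 1 is thus the median shared peak and not the median of all 2988 combined peaks. Replicates 1 and 2 listed all 16 member peaks, and replicate 3 listed 8 of them (50%, beside 78.7% of all combined peaks). Among the 2988 highest entries of each replicate, called top peaks here, replicate 1 held 15 of the 16, replicate 2 held 14 and replicate 3 held 8. These are 93.8%, 87.5% and 50%, beside 78.8%, 83.4% and 66.2% of all combined peaks. The top peaks of all 3 replicates held 8 of the 16 (50%), beside 50.3% of all combined peaks. Neighbouring summits can share an entry in these counts. The 8 include a Trl summit at +1357 that overlaps the same replicate entries as Trl +1559. Its own entry in replicate 2 was at rank 4823, below the top peaks, and replicates 1 and 3 had none of its own. In replicate 1 the 15 include kis +2678 through the entry of kis +2886, while its own entry was at rank 3733. Asking for a top peak in both other replicates left 8 summits without replicate 1, 8 without replicate 2 and 13 without replicate 3. Counted by gene, a top peak summit lay in 6 of 9 genes in each replicate, beside 19.3%, 18.9% and 16.8% of protein-coding genes in replicates 1, 2 and 3. These were the same 6 genes in every replicate, but the kis peak that replicate 3 listed was not in the combined list. With 1 group of 3 replicates there is no comparison of conditions, and 3 pairs cannot go below p = 0.25 in an exact permutation test, so peaks are set side by side with their spread.

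**Figure D3:**
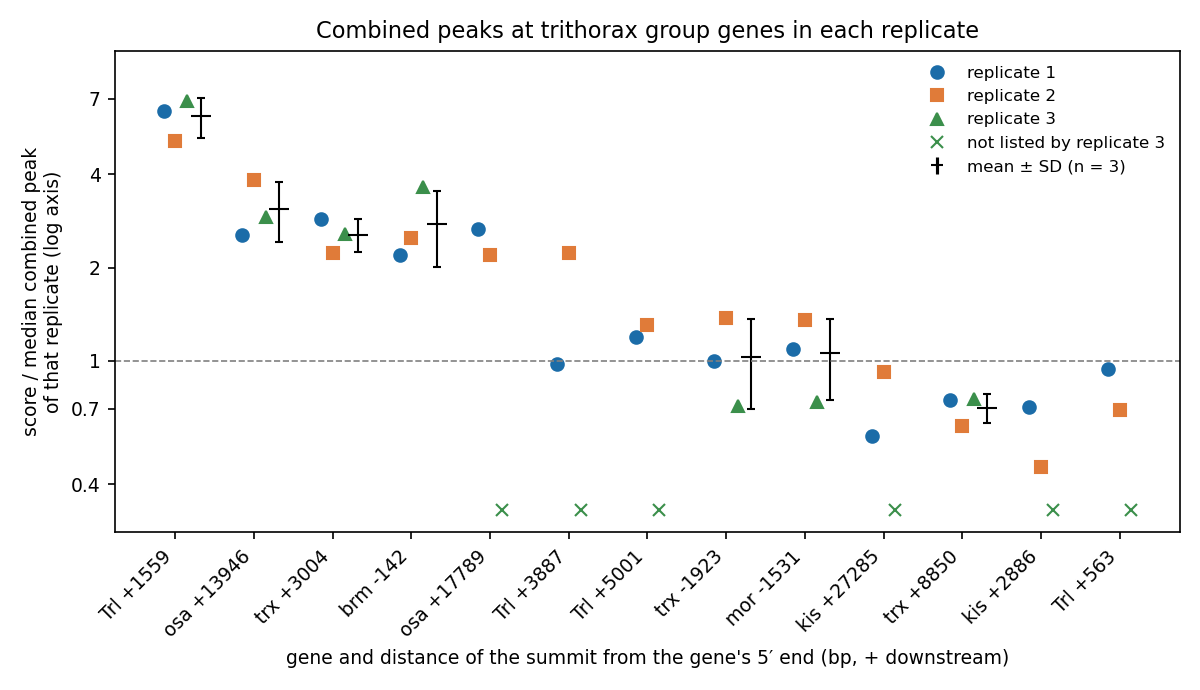
Relative score (vertical log axis, 1 is the median shared peak of that replicate) of 13 member peaks in replicates 1, 2 and 3. Black bars give mean ± SD where all 3 lists have the peak, and crosses mark peaks that replicate 3 does not list. The Trl peak at +1559 lies above 5 in every replicate, and the 6 crosses stand at peaks of osa, Trl and kis.

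Among the Brahma complex genes, brm (FBgn0000212, chr3L:15970082-15982869 in dm6, minus strand) carried the only summit within 500 bp of the gene's own start. It lay 142 bp upstream of brm at chr3L:15983011, rank 299 with a score of 617, in an interval of 307 bp (chr3L:15982852-15983158). In replicates 1, 2 and 3 the relative score was 2.19, 2.49 and 3.63 (2.77 ± 0.762, SD, n = 3). All 3 replicates placed the peak above the median shared peak, and their summits lay 15, -6 and -22 bp from the combined summit. The interval covers the gap between brm and Arl1 (chr3L:15983135-15984362, plus strand), which encodes a small GTPase of the ARF-like family and starts in the opposite direction. The summit was 124 bp upstream of the Arl1 start and so nearer to Arl1 than to brm.

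osa (FBgn0261885, chr3R:17687818-17718350, minus strand) had both of its peaks in introns far from its start. The stronger lay 13946 bp downstream of the start at chr3R:17704404, rank 221 with a score of 739. Its relative score was 2.54, 3.84 and 2.91 in replicates 1, 2 and 3 (3.10 ± 0.673, SD, n = 3), and replicate 2 was the highest. The other lay 3843 bp further on, at +17789 (chr3R:17700561, rank 302, score 611). Here replicate 1 gave 2.66 and replicate 2 gave 2.20, and replicate 3 did not list the peak although its score in the combined list was close to that of brm. Long non-coding RNA genes start nearer to both summits: lncRNA:CR46035 at 709 bp from the first and lncRNA:CR46036 at 180 bp from the other. No combined summit lay at the osa start itself, where the pooled list had an entry 65 bp downstream at rank 8984.

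The peak of mor (FBgn0002783, chr3R:15968134-15972913, minus strand) was of middling strength. It lay 1531 bp upstream of the start at chr3R:15974444, rank 1138 with a score of 256. Its relative scores were 1.09, 1.35 and 0.736 in replicates 1, 2 and 3 (1.06 ± 0.310, SD, n = 3). These values lay around that of the median shared peak. The summit falls inside Hel89B (chr3R:15973298-15983451, plus strand), which encodes a helicase and starts in the opposite direction from mor. It was 1146 bp from the Hel89B start and so nearer to it than to mor. Replicate 1 alone also had a top peak 397 bp inside mor, at rank 2782 and a relative score of 0.652.

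Snr1 (FBgn0011715, chr3R:5470926-5472754, plus strand) had no combined summit. The pooled list had 1 entry there, 68 bp upstream of the start at rank 9115. Replicate 1 had 2 entries at ranks 5886 and 16926, and replicates 2 and 3 had none. The replicate lists hold 30000 entries each, which the authors describe as peaks and background, so such ranks are not read as binding.

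Among the methyltransferase genes, trx (FBgn0003862, chr3R:14263358-14286903, minus strand) was the only gene with a combined summit, and all 3 of its summits were top peaks in all 3 replicates. The strongest lay in an intron 3004 bp downstream of the start at chr3R:14283899, rank 269 with a score of 647. Its relative score was 2.86, 2.24 and 2.56 in replicates 1, 2 and 3 (2.55 ± 0.314, SD, n = 3). trx itself has the nearest TSS, and no other gene's region reached this summit. A weaker summit lay 8850 bp downstream of the start (rank 1763), with relative scores of 0.748, 0.619 and 0.756 (0.708 ± 0.0768, SD, n = 3). The replicates were close together there, all below the median shared peak.

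The other trx summit lay 1923 bp upstream of the start at chr3R:14288826 (rank 959). Replicates 1, 2 and 3 gave it relative scores of 1.00, 1.38 and 0.718 (1.03 ± 0.330, SD, n = 3). It was 245 bp upstream of red (chr3R:14289071-14302276, plus strand) and so much nearer to red than to trx. Replicate 2 was the highest and replicate 3 the lowest, and only replicate 3 fell below the median shared peak.

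ash1 (FBgn0005386, chr3L:19590773-19598755, minus strand) had no entry in the pooled list. Replicate 1 listed 2 entries there, the higher at rank 10859 and 94 bp downstream of the start, replicate 2 listed 2, the higher at rank 16946, and replicate 3 listed none. ash2 (FBgn0000139, chr3R:24650125-24653376, plus strand) had 1 pooled entry at rank 12373, 38 bp upstream of the nearest of its 3 TSSs. Replicate 1 placed its best entry there at rank 6336 and replicate 2 at rank 6941, and replicate 3 listed none. None of these entries was among the 2988 highest of its list.

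Trl (FBgn0013263, chr3L:14747929-14761049, minus strand), the GAGA factor gene, had the strongest peak and the most summits of the 9 genes. Its 6 summits compare with 27 protein-coding genes that hold 6 or more, 0.193% of all and 0.422% of those with regions of 10 to 20 kb (5 of 1186 genes). The limit of 6 is the count of Trl itself, the highest of the 9 genes, so these shares only describe it. The regions of other genes also reached these summits: that of CG42507 at all but +563, and those of Mgat4a and Tsen34 at +563. The strongest lay in an intron at chr3L:14759490, 1559 bp downstream of the 5′ end, at rank 86 with a score of 1490. Replicate 1 gave a relative score of 6.41, replicate 2 gave 5.13 and replicate 3 gave 6.90 (6.15 ± 0.912, SD, n = 3). The peak stood at ranks 103, 90 and 75 in these lists. The lowest replicate value at this peak was above the highest value of any replicate at the osa, brm and trx peaks. The nearest TSS, 1528 bp further downstream, is an internal Trl start that CG42507 (chr3L:14747929-14757962, minus strand) shares, so the peak could be assigned to either gene by distance.

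The same interval of 404 bp held a further combined summit at +1357 (rank 2826, score 134), 202 bp from the strongest. Only replicate 2 had a separate entry near it, at rank 4823 and a relative score of 0.408. In replicates 1 and 3 the interval had only the strong summit. A summit at +563 (rank 2065) had relative scores of 0.940 in replicate 1 and 0.695 in replicate 2 and was not listed by replicate 3.

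The remaining Trl summits lay around and beyond the internal starts. The summit at +3887 fell 174 bp downstream of an internal TSS, in a 5′ untranslated region (chr3L:14757162, rank 623, score 379). Replicate 1 gave it 0.978 and replicate 2 gave it 2.23, so these 2 replicates placed it at rank 1391 and rank 361. The summit at +5001 (rank 754) had 1.19 in replicate 1 and 1.30 in replicate 2. The summit at +4801 (rank 1248), 200 bp away in an overlapping interval, had its own entries in replicates 1 and 2, at 0.948 and 0.710. Replicate 3 listed none of these summits, and in all it had 1 entry across the whole Trl region, beside 12 in replicate 1 and 11 in replicate 2.

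kis (FBgn0266557, chr2L:210735-250823, minus strand), the longest of the 9 genes, had weak peaks only. The highest lay at chr2L:223538, 27285 bp inside the gene and 1576 bp upstream of its internal TSS, at rank 1663 with a score of 195. Its relative score was 0.575 in replicate 1 and 0.922 in replicate 2, and replicate 3 did not list it. It was 19 bp from the start of lncRNA:CR44222. The summits at +2886 (rank 2036) and +2678 (rank 2898) were 208 bp apart in overlapping intervals, with lncRNA:CR44218 nearest to both. At +2886 the relative score was 0.710 in replicate 1 and 0.454 in replicate 2, and at +2678 their own entries gave 0.551 and 0.383. Replicate 3 listed neither, so no kis summit of the combined list had support from all 3 replicates.

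Set in order, the Trl peak at +1559 was apart from the rest, and the osa peak at +13946, the brm peak and the trx peak at +3004 had overlapping replicate ranges (2.54 to 3.84, 2.19 to 3.63 and 2.24 to 2.86). The mor peak and the trx peak at -1923 did not differ beyond their spread, and the range of the trx peak at +8850 (0.619 to 0.756) overlapped both, with its replicate 3 value above theirs. Among combined summits close to the start of a protein-coding gene (at most 500 bp away), those directly above the Trl peak in the ranking were at Dhc64C and LeuRS-m, which share rank 82, and at orion (rank 84), and those directly below were at CG6574 (rank 87) and px (rank 89).

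The lower limit of the combined list ran through kis and Trl. Just inside lay kis +2678 (score 131) and Trl +1357 (134), beside a lowest combined score of 128. Just outside lay a kis entry 2871 bp upstream of the internal TSS, at pooled rank 3448 with a score of 116. It was at rank 5403 in replicate 1, 3445 in replicate 2 and 1615 in replicate 3, and replicate 3 was the only one with it among its top peaks. The next pooled entries of the 9 genes were kis +6862 (rank 3499), a Trl entry 1365 bp upstream of the 5′ end (rank 3676), a trx entry at +3741 (rank 3708) and a Trl entry 342 bp upstream of an internal TSS (rank 3783).

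Listed entries of every kind were denser over these genes in replicates 1 and 2 than in replicate 3. Over the 156134 bp searched, replicate 1 had 92 entries (0.589 per kb), replicate 2 had 56 (0.359 per kb) and replicate 3 had 25 (0.160 per kb). The density over all chromosome arms was 0.218 per kb in each list, so replicates 1 and 2 were above it and replicate 3 below. The pooled list had 68 entries (0.436 per kb), and the combined list had 0.102 per kb, beside 0.0217 over all arms. The densities over all arms also count sequence outside genes, whereas the member regions are gene bodies and TSS windows. The 2 bases are therefore unlike, and no density over the regions of other genes was taken. At osa replicates 1, 2 and 3 had 28, 11 and 7 entries and at kis 22, 8 and 4, while at trx they had 14, 14 and 10. Read depth per replicate is unknown, and its part in these differences was not tested.

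The gene with the nearest TSS was the member itself at 8 of the 16 summits, counting the tie at Trl +1559. The other 8 were nearer to another gene. At 3 of them this was a protein-coding gene (Arl1, red and Hel89B), each of which starts away from the member, and at the other 5 it was a long non-coding RNA gene that starts within osa or kis. Under the rule of the nearest TSS, Trl and trx were the 2 members left, beside the 12.4% of protein-coding genes given above. When only protein-coding genes could claim a summit, 12 summits at 4 members were left, since osa and kis came back; the osa summit at +17789 was then nearer to CG31249, 13490 bp upstream of that gene's start.

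The member summits had a mean A+T content above that of all combined summits, by less than the SD over summits. This SD is the spread of single summits and not of the mean, and the difference was not tested. Within 50 bp of the summit the A+T content was 69.4 ± 9.58% (SD over 16 summits, which are not replicates), beside 63.8 ± 9.60% at all combined summits and 56.9% at flanks 500 bp away. The windows printed above include the 2 richest, brm at 86.1% and osa +17789 at 83.2%, and Trl +1357 was the poorest at 47.5%. The longest unbroken run of A and T, a measure chosen after the sequences were seen, had a median of 12 bases at member summits, beside 9 at all combined summits and 7 at flanks. It was longest at brm with 22 bases, followed by kis +2886 with 20, Trl +4801 with 18, and osa +17789 and trx +8850 with 17 each, while the strongest peak, Trl +1559, had 9.

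Motifs were searched on both strands in the same windows. GAGAG, the core of GAGA factor sites, was found at 1 of the 16 member summits (kis +27285), beside 9.64% of all combined summits and 15.2% of flanks. None of the 16 windows held CGATA, bound by the insulator protein BEAF-32 (13.3% of all combined summits, 11.8% of flanks). None held TATCGATA, the DNA replication-related element (1.24% and 0.351%), CACGTG, the E-box (1.07% and 1.37%), CAGGTAG, bound by Zelda (0.636% and 0.669%), or GTCACACT, bound by M1BP (0.569% and 0.368%). The 5 sequences of 7 bases most enriched at other combined summits overlap each other: ACCCTAC (2.81% of combined summits and 0.301% of flanks), TACCCTA (2.58% and 0.402%), CCCTACA (2.64% and 0.485%), AGGGTAT (4.22% and 0.853%) and CACCCTA (1.27% and 0.268%). None of the 16 member windows held any of the 5, which says only that these letters are not in these windows. With shares this low at all combined summits, counts of 0 or 1 in 16 are near the background. The kis window that holds GAGAG (chr2L:223488-223588 in dm6, minus strand) is printed because it is the only match, with the motif, which reads CTCTC on this strand, in capitals.
kis +27285: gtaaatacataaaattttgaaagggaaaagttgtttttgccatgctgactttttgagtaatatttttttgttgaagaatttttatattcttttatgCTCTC

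Related genes outside the 9 were taken from a list of 41, of which 10 (24.4%) held a combined summit, beside the 19.5% of all protein-coding genes given above. Of the 7 other Brahma complex subunits 1 held a summit: Brd7-9, a bromodomain subunit, at rank 2789. It had 0.334 in replicate 1 and 0.720 in replicate 2 and was not listed by replicate 3. None of the 14 COMPASS subunits did, which by a limit of 3 counts allows a share of up to 21.4%, and 10 of these 14 had regions below 10 kb. Among 15 other trithorax group and remodelling genes 7 held a summit, and 5 of these 7 were among the 6 with regions of 20 kb or more. The highest were Mi-2, the ATPase of the NuRD complex (rank 358, relative scores of 1.79 and 2.44 in replicates 1 and 2 not listed by replicate 3, and asRNA:CR43889 nearer than Mi-2, whose nearest TSS was 6947 bp away), and tou, a relative of subunits of ISWI complexes (rank 507). At tou the replicates gave 1.43, 2.06 and 2.11 (1.87 ± 0.381, SD, n = 3). Below them stood the histone demethylase gene Kdm5, also called lid (rank 1052), the BET bromodomain gene fs(1)h (rank 1103), tna (rank 1160) and the remodeller gene Chd1 (rank 1571, with the start of Bem46 nearer). All 3 replicates listed these Kdm5 and tna summits, but replicate 3 listed neither fs(1)h nor Chd1. Replicates 1 and 2 gave 0.952 and 0.904 at fs(1)h, and 0.841 and 0.957 at Chd1.

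Among the 5 genes listed as partners of GAGA factor, lolal and psq held summits, and both ranked above Trl. The lolal summit, 3 bp from the TSS of this gene for a BTB-domain protein that binds GAGA factor, stood at rank 11. Its relative score was 36.1, 21.8 and 25.0 in replicates 1, 2 and 3 (27.6 ± 7.47, SD, n = 3). The psq summit, 1578 bp from a TSS of this gene for another GAGAG-binding protein, stood at rank 72 with 12.5, 4.77 and 6.34 (7.86 ± 4.06, SD, n = 3). The lolal values lay above every value of Trl +1559, and the psq values overlapped them. Within the list of 41, summits were at 6 of the 7 genes with regions of 20 kb or more, beside 45.2% of such protein-coding genes. Below 10 kb they were at 2 of the 25 genes, beside 15.3%. The count thus also followed region length here, and no test was made of these lists.

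**Figure D4:**
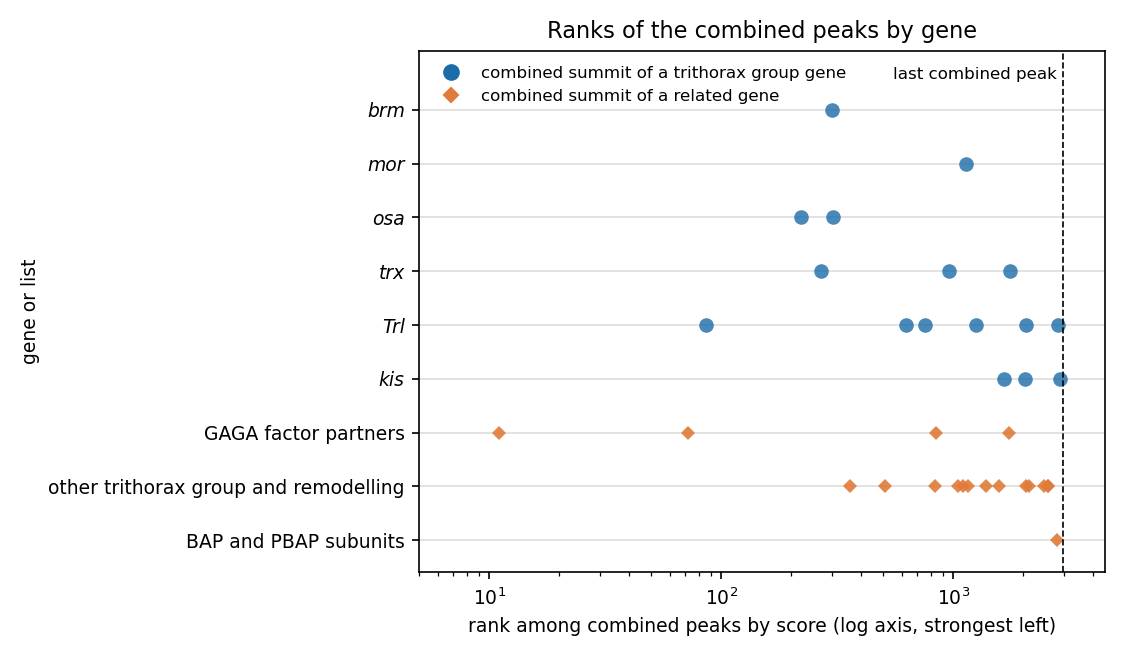
Rank by score in the combined list (horizontal log axis, strongest peaks to the left, dashed line at the last of 2988 peaks) of the 16 summits at 6 trithorax group genes (blue circles) and of the summits at related genes in 3 lists (orange diamonds); the COMPASS subunits had none. Trl has the leftmost blue circle at rank 86, lolal the leftmost diamond at rank 11, and all 3 kis circles lie at ranks of 1663 and beyond.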

How the data were processed

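Peak lists of ChIP-seq against GFP-tagged CG10274 were deposited by the authors for the dm6 and dm3 builds, as narrowPeak files per the labels and the descriptions beside them. Software for alignment and peak calling, with versions and cutoffs, is not given in the sources used here. The score of each peak (column 7), as deposited by the authors, has no fixed range and was not scaled between lists. Each replicate list and the list called on pooled replicates holds 30000 entries described as peaks and background, and the combined list is exactly the 2988 highest entries of the pooled list. Without read counts the depth of each replicate is unknown, and intervals cover the counting of genes only. The control data set that the labels name was not analysed here, and the dm3 lists were not used here.

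Summits (column 2 plus column 10) were assigned with the Ensembl release 115 annotation (BDGP6.54) of genome release 6, without transposable elements. Coordinates are 1-based. The look-up of summits in gene regions was checked on simulated summits placed inside those regions, which does not test the assignment rule itself. Relative scores divide by the medians of the shared peaks, 112.5, 74.9 and 56.3 in replicates 1, 2 and 3. The medians of each replicate's own top peaks were lower, at 105.6, 66.9 and 45.0. A value below 1 therefore need not lie below the median of a replicate's top peaks. Replicate numbers are those of the labels, and an overlap of 1 bp joined peaks. Python 3.11.15 was used with numpy 2.4.6, pandas 2.3.3, scipy 1.17.1 and matplotlib 3.10.9.

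The members and lists were chosen with earlier results of these data known, so no list was tested. Named are all 9 members, the genes of nearer TSSs, related genes with a combined summit (the 8 highest by score and up to 2 per list), and the 2 promoter peaks directly above and below the strongest member peak. Of the 41 related genes, 2 were matched by an older symbol. Alternatives changed the TSS window, the gene body, the claim of the nearest TSS, the score limit, the overlap, the scaling and the replicates used.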

Additional observations from a re-analysis of the deposited data

How the results depend on the processing

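The count of 6 members with a combined summit was 5 under every window, the higher-scoring part of the combined list and each replicate left out, and 2 when only the nearest TSS counted, where lncRNA and neighbouring starts take summits by construction. The 16 member summits became 10 with the TSS window alone, 8 with the nearest TSS only, 10 in the higher-scoring part of the list, and 8 to 13 when 1 replicate was left out, that is, when a peak had to be a top peak of both others. With replicate 1 or 2 left out, the count was 8, because replicate 3 had 8 of these peaks among its top peaks. The share of protein-coding genes with a summit, 19.5%, became 12.4% with the nearest TSS only, 11.4% in the higher-scoring part, and 10.8 to 13.97% without a replicate. The 10 related genes became 5 to 8 without a replicate. The 2 members with a promoter summit became 5 with a window of 2000 bp, 1 with the nearest TSS only, and 1 to 2 without a replicate.

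With only protein-coding genes allowed as nearest, an alternative added after the data were seen, 4 members and 12 summits were left. The count of 8 peaks supported by all 3 replicates, which includes Trl +1357 through shared entries, was 8 with a reciprocal overlap of 50% and with the top 10000 entries. The wider limit of 10000 could not change this count, because replicate 3 listed only these 8 member peaks at any rank. Scaling by each replicate's own top peaks moved 4 of 8 mean relative scores by more than their SD: to 7.07 at Trl +1559, which also stands for Trl +1357 in the same interval, 2.92 at trx +3004 and 0.812 at trx +8850. Taking the entry with the nearest summit moved Trl +1357 from 6.15 to 4.57, since only replicate 2 has its own entry there. No paired analysis was possible because there is 1 group.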
